A study of Mus musculus with 19 samples.

Results

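The genes described here are 8 G protein-coupled receptors of non-peptidergic sensory neurons, taken by gene name from the deposited table of dorsal root ganglia: 6 receptors of the Mrgpr family (Mrgprd, Mrgpra3, Mrgprb4, Mrgprb5, Mrgprx1 and Mrgpre) and 2 receptors of lysophosphatidic acid (Lpar3 and Lpar5). They are 8 of 36682 genes in the table, and each of the 8 was among the 22778 genes with enough counts to be tested. Gene expression was measured by stranded poly(A) RNA sequencing of pooled ganglia L3 to L5 in 19 male mice homozygous for the macrophage Fas-induced apoptosis (MaFIA) transgene. The 4 groups were naive mice given vehicle (n = 5), age-matched naive mice given the dimerizing drug AP20187 (n = 4), mice with destabilization of the medial meniscus (DMM) given vehicle (n = 5) and mice with DMM given AP20187 (n = 5). DMM is a surgical model of knee osteoarthritis, and the drug or vehicle was injected intraperitoneally once a day for 5 consecutive days, in DMM mice 8 weeks after surgery. Every mouse, the vehicle mice included, carried the transgene, which the Csf1r promoter drives in macrophages and related myeloid cells and which kills them when AP20187 joins its Fas domains. In DMM mice the ganglia came from the operated side, and the side in naive mice is not given in the sources used here. Age in weeks and naive AP20187 2 were not analysed here. Each numbered sample is taken as 1 mouse, and p-values measure the spread between these samples.

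Sensory neurons that signal pain and itch fall into peptidergic cells and non-peptidergic cells, and the latter are told apart largely by which Mrgpr receptor they carry. Mrgprd, the receptor of beta-alanine, marks the most numerous non-peptidergic nociceptors, which end in the skin. Mrgpra3, the receptor of chloroquine, and Mrgprx1, a receptor of the peptide BAM8-22 that was formerly named Mrgprc11, serve itch. Mrgprb4 marks C fibres that respond to stroking of the skin, Mrgprb5 is its close relative in sequence, and Mrgpre is a receptor with no agreed ligand. Lpar3 and Lpar5 bind lysophosphatidic acid, a lipid mediator linked to pain and itch. Many of these receptors signal through Gq proteins and phospholipase C beta to ion channels such as Trpv1 and Trpa1. The transcription factor Runx1 is needed for the identity of non-peptidergic neurons and for the expression of several Mrgpr genes.

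On the GRCm39 build of the files, the 6 Mrgpr genes lie on chromosome 7. Mrgpra3 (47238698 to 47251120), Mrgprx1 (47670719 to 47677345), Mrgprb5 (47817731 to 47818767) and Mrgprb4 (47847818 to 47849036) stand near each other on the minus strand. Mrgpre (143332100 to 143338237, minus strand) and Mrgprd (144868572 to 144877823, plus strand) lie further along the chromosome. Lpar3 lies on chromosome 3 (145926718 to 145991941) and Lpar5 on chromosome 6 (125044883 to 125059435), both on the plus strand. These spans are those of whole protein-coding genes. No other gene of the table overlapped them.

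The promoters of the 3 genes with the largest falls in DMM mice given AP20187 are shown first, since the RUNX motif can be looked for in them. They are RefSeq sequences of the GRCm38.p6 build, from 250 bases before to 50 bases after the start of transcription, and capitals mark the RUNX motif TGTGGT or its reverse complement ACCACA, which do not overlap each other.
Mrgprd, chr7:145314585-145314884, strand +: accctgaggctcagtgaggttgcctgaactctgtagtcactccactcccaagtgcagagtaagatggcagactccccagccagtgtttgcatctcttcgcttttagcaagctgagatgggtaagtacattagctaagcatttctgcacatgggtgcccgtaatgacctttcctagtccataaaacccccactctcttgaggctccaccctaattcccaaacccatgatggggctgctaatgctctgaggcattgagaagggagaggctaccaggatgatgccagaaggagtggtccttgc
Lpar3, chr3:146220711-146221010, strand +: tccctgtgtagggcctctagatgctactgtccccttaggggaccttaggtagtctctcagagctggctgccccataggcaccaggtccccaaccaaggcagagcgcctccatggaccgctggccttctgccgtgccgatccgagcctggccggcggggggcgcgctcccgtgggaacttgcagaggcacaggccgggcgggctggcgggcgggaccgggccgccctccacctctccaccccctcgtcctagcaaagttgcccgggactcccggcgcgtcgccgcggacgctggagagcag
Lpar5, chr6:125071085-125071384, strand +: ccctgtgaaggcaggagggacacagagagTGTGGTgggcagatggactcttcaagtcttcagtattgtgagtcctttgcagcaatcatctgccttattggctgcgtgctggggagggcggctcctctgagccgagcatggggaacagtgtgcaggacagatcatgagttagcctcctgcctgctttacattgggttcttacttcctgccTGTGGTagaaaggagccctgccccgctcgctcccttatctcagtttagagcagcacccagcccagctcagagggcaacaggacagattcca
Of the 8 genes, 7 were matched in the promoter table, with 8 promoters, and Mrgpra3 was not. The motif was present in both promoters of Lpar5 and in no promoter of the other 6 matched genes. In the one printed it starts at -221 and -41 from the start of transcription, and in the other at -140. It was present in 16.8% of 32851 promoters of the same length. A match is a description of these letters only.

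Mrgprb4 and Mrgprb5 are shown because they are the closest pair in transcript sequence among the 4 clustered Mrgpr genes, the only ones aligned. Capitals mark the 54 of 300 positions where the RefSeq promoters (GRCm38.p6) differ.
Mrgprb4, chr7:48199129-48199428, strand -: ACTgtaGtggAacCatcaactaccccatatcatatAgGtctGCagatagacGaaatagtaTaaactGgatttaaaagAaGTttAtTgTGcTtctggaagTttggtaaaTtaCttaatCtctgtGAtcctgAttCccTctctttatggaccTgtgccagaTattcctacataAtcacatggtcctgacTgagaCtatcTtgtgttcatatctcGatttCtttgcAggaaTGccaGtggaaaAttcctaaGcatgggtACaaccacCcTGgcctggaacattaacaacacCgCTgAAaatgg
Mrgprb5, chr7:48168936-48169235, strand -: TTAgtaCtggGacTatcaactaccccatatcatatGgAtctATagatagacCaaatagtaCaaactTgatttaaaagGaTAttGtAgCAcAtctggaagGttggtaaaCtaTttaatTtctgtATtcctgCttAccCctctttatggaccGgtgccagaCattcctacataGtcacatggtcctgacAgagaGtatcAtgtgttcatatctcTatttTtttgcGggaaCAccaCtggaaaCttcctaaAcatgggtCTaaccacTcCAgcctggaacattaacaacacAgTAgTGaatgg
The remaining 246 positions are identical (82%). Aligned transcripts of the pair in GENCODE (GRCm38) are identical at 872 of 1034 bases, which is 84.3%. Among the 4 clustered genes the next closest pair, Mrgpra3 and Mrgprx1, is identical at 69.2% of 1075 bases. Of the stretches of 50 bases in a transcript, the share also found in a transcript of another gene was 7.14% for Mrgpra3, 5.84% for Mrgprx1, 1.45% for Mrgprb4 and 0.810% for Mrgprb5. Reads from those stretches could be credited to a relative. No such stretch was found for Mrgprd, Lpar3 or Lpar5, and the 0.808% found for Mrgpre were shared with genes outside the family.

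Libraries held 60984830 to 74691396 counts, so that 3 counts corresponded to 0.0400 to 0.0519 CPM, the counts of a gene scaled to library size by the TMM method. The ganglia held other cells to different degrees, and these marker sums moved with the groups. The summed level of 15 pan-neuronal genes was 6493 to 11397 CPM in naive vehicle, 2162 to 8297 in naive AP20187, 4678 to 9981 in DMM vehicle and 1936 to 5549 in DMM AP20187. The summed level of 10 granulocyte genes was 768 to 2125, 7942 to 27208, 369 to 7280 and 16664 to 28783 CPM in the same order, with none of the 10 at 0 in a whole group. Skeletal muscle genes (5) summed to 1466 to 2219 CPM in naive AP20187 and to 11.1 to 403 in naive vehicle. In DMM vehicle they summed to 1713 CPM in mouse 32 and to 13.3 to 222 in the other 4, and in DMM AP20187 to 15.1 to 124. The 9 macrophage genes, the cells the drug is aimed at, summed to 471 to 789 CPM in naive AP20187, 90.2 to 499.96 in naive vehicle, 241 to 1029 in DMM AP20187 and 168 to 638 in DMM vehicle. With AP20187, 0 of the 9 were lower in either comparison. In DMM mice 1 was higher (median log2 fold change of the list 1.12), and in naive mice 2 were (1.22). Over all genes, 11.3% were higher in DMM and 8.61% in naive mice. Of other cell types, 6 of 7 early B cell genes (median log2 fold change -4.005), 3 of 5 erythroid (-1.75), 3 of 8 Schwann cell (-0.74) and 2 of 5 satellite glia genes (-0.62) were lower with AP20187 in DMM mice, and 5 of 7, 0 of 5, 0 of 8 and 1 of 5 in naive mice. The share of all genes that were lower was 12.4% in DMM and 2.57% in naive mice. Of 4 spinal cord genes, 0 were lower in DMM and 2 in naive mice, where they summed to 12.4 to 27.6 CPM with AP20187 and 33.4 to 41.0 with vehicle. Of 5 mast cell genes, 1 was higher in DMM and 1 in naive mice, not necessarily the same gene. Non-peptidergic neurons were present in every library by their other markers, of which 11 of 11 were tested and the sum was never below 543 CPM. In whole ganglia, fewer cells of a type and less RNA per cell cannot be told apart.

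Per length of transcript, Mrgprd was the most abundant of the 8 in naive vehicle mice, at 43.7 ± 10.9 FPKM (SD, n = 5), followed by Lpar3 at 23.9 ± 6.06. Mrgprx1 was at 13.5 ± 4.02 FPKM, Mrgpra3 at 9.12 ± 2.18 and Mrgprb4 at 8.35 ± 1.65. Mrgprb5 at 6.18 ± 1.58, Mrgpre at 5.38 ± 1.40 and Lpar5 at 5.20 ± 1.08 FPKM did not differ from each other beyond their SDs, nor did the 3 genes above them. In DMM mice given AP20187 the SDs of the 5 highest overlapped. Mrgprd was at 6.42 ± 5.39 FPKM (n = 5), Mrgprx1 at 5.07 ± 1.97, Mrgpra3 at 4.72 ± 2.33, Mrgprb5 at 4.58 ± 2.29 and Lpar3 at 4.00 ± 2.46. Mrgprb4 at 3.06 ± 1.44, Mrgpre at 1.89 ± 1.23 and Lpar5 at 0.986 ± 0.605 FPKM were lower, and the SDs of Lpar5 and of Mrgprx1, Mrgpra3 or Mrgprb5 did not overlap.

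AP20187 against vehicle in DMM mice asks how the drug that targets macrophages changed the ganglia after joint surgery. Of the 8 receptors, 4 were lower with AP20187 at an adjusted p under 0.05 and 0 were higher: Mrgprd, Lpar3, Lpar5 and Mrgprx1. In the same comparison 23.8% of all tested genes passed, 12.4% as lower and 11.3% as higher. The median log2 fold change of the 8 was -1.13, against -0.10 over all genes. Adjusted p-values here and below are from edgeR's quasi-likelihood test with Benjamini-Hochberg adjustment over all tested genes, and a log2 fold change is given as AP20187 minus vehicle. No receptor had AP20187 mice all below the vehicle mice, a pattern that 4.18% of all genes had. DMM vehicle 64 was the lowest vehicle mouse for each of the 8.

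Mrgprd, the beta-alanine receptor, stood at 147 CPM in DMM vehicle 32, 181 in 33, 131 in 34, 68.7 in 63 and 22.1 in 64. With AP20187 it stood at 3.86 CPM in DMM mouse 58, 12.035 in 59, 14.6 in 60, 49.5 in 61 and 25.7 in 62. All 5 treated mice were below the 4 highest vehicle mice, and 2 of them, 61 and 62, were above DMM vehicle 64. The log2 fold change was -2.38 (SE 0.62, adjusted p 0.0119), a 5.19-fold lower level.

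Lpar3 was at 58.2, 66.1, 42.3, 51.0 and 17.2 CPM in DMM vehicle 32, 33, 34, 63 and 64. With AP20187 it was at 5.11, 8.50, 7.94, 21.1 and 8.19 CPM in mice 58 to 62. A single treated mouse, 61, lay above the lowest vehicle mouse. The log2 fold change was -2.21 (SE 0.41, adjusted p 0.00162), the smallest adjusted p of the 8.

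Lpar5, the other lysophosphatidic acid receptor, was at 8.71, 9.61, 6.39, 3.42 and 2.02 CPM in the vehicle mice in the same order and at 1.30, 0.819, 1.62, 3.09 and 0.849 CPM in mice 58 to 62. Again only mouse 61 exceeded the lowest vehicle mouse. The log2 fold change was -1.97 (SE 0.47, adjusted p 0.00729).

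Among the itch receptors, Mrgprx1 was at 18.8, 18.04, 15.4, 11.8 and 4.67 CPM in DMM vehicle and at 2.20, 6.87, 7.65, 8.15 and 6.08 CPM in DMM AP20187. Only DMM vehicle 64 lay among the treated mice. Its log2 fold change of -1.15 (SE 0.40) passed narrowly, at an adjusted p of 0.0459. It no longer passed when any of 8 mice was left out, treated mouse 58, 59, 60 or 62 or vehicle mouse 32, 33, 34 or 63 (adjusted p 0.0564 to 0.110). Mrgpra3, the chloroquine receptor, was at 6.73 to 13.1 CPM (median 8.63) in DMM vehicle and 1.52 to 9.66 (median 6.52) in DMM AP20187. Its log2 fold change of -0.62 (SE 0.41) did not pass (adjusted p 0.293).

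Mrgprb4, the marker of C fibres that respond to stroking, was at 13.2, 12.4, 8.31, 5.68 and 2.43 CPM in DMM vehicle and at 0.788, 5.56, 4.29, 4.45 and 4.33 CPM in DMM AP20187. Its log2 fold change was -1.11 (SE 0.61, adjusted p 0.195). Mrgprb5 was at 2.37 to 10.4 CPM (median 6.64) and 2.86 to 8.79 CPM (median 4.12), with the smallest log2 fold change of the 8, at -0.46 (SE 0.35, adjusted p 0.366). Mrgpre was at 19.8, 22.2, 18.2, 11.7 and 7.29 CPM with vehicle and at 3.61, 5.21, 4.58, 15.5 and 8.17 with AP20187. Its log2 fold change of -1.10 missed the threshold (SE 0.41, adjusted p 0.0568). It passed without DMM AP20187 61 (adjusted p 0.00751) and without DMM vehicle 64 (adjusted p 0.0203).

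**Figure D1:**
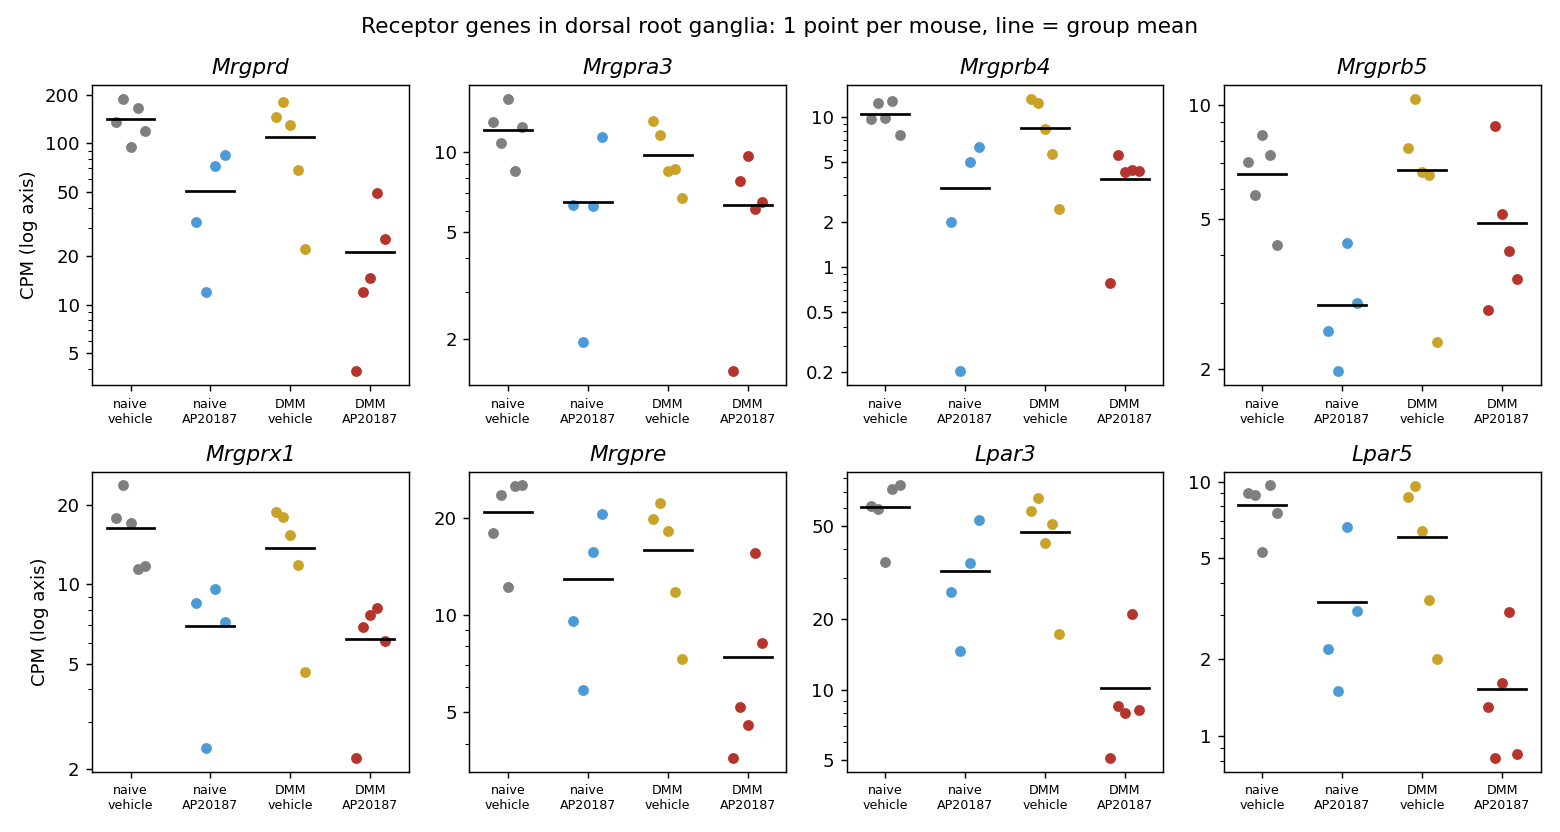
Level of each receptor in CPM (logarithmic axis, a separate scale per panel) in the 4 groups, with 1 point per mouse and a line at the group mean. DMM vehicle 64, the lowest gold point of each panel, lies within the range of the DMM AP20187 mice for each of the 8 genes except Mrgprb5, where it is below them at 2.37 CPM.

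The count of receptors that passed differed with the vehicle mice used. The numbers of the DMM vehicle mice fall into 32 to 34 and 63 to 64, and no label says why. Against mice 32 to 34 alone, 5 receptors passed, Mrgpre being the addition, with a log2 fold change of -2.85 for Mrgprd (adjusted p 0.00256), where 36.3% of all genes passed. Against mice 63 and 64 alone, 0 passed and 1, Lpar3, had an unadjusted p under 0.05, which 19.8% of all genes had. In that fit Lpar3 was at -1.70 (adjusted p 0.0531), Mrgprd at -1.07 (adjusted p 0.433) and Mrgprb5 at 0.20 (adjusted p 0.872), and 4.73% of all genes passed. That fit has fewer vehicle mice as well as other ones, and the part of either in the lost calls was not tested. Mouse 64 had a pan-neuronal sum of 4678 CPM, against 8304 to 9981 in the other 4, mouse 63 being at 9606. Its granulocyte sum was 7280 CPM, against 369 to 2507 in the other 4. The part of these sums in the result was not tested.

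AP20187 against vehicle in naive mice compares the drug with vehicle without surgery. The groups also differed in the skeletal muscle and spinal cord sums given above, and the part of the drug alone was not tested. All 8 receptors had lower fitted levels with AP20187, with log2 fold changes of -0.68 to -1.63 and a median of -1.19 against -0.07 over all genes, but 0 of 8 passed by edgeR's quasi-likelihood test, where 11.2% of all genes passed 2.57% as lower and 8.61% as higher. An unadjusted p under 0.05 was reached by 6 of 8, all but Mrgpra3 and Mrgpre, against 28.8% of all genes. In edgeR it was reached by 2 without naive AP20187 1 (22.5% of all genes) and by 3 without naive AP20187 3 (19.3%). Without naive AP20187 5 it was reached by 8 (33.2%), and scaled to pan-neuronal genes by 2 (38.8%). DESeq2 called 4 of 8 (19.1% of all genes) and limma voom 5 of 8 (19.9% of all genes), all lower. All naive AP20187 mice lay below all naive vehicle mice for Mrgprd, Mrgprb4 and Mrgprx1, which is 3 of 8, where 6.15% of all genes had that pattern.

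Mrgprd was at 136, 189.8, 95.2, 166 and 119 CPM in naive vehicle 1 to 5 and at 32.6, 12.1, 72.9 and 84.4 CPM in naive AP20187 1, 3, 4 and 5. The groups did not overlap, and the treated mice spread over a 7.002-fold range. The log2 fold change was -1.48 (SE 0.65, adjusted p 0.141). Mrgprb4 had the largest fitted change, -1.63 (SE 0.67, adjusted p 0.117). It was at 9.69, 12.3, 9.79, 12.8 and 7.60 CPM with vehicle and at 2.01, 0.203, 4.97 and 6.32 with AP20187, where naive AP20187 3 held only 12 counts of it. Mrgprx1 was at 17.9, 23.7, 17.0, 11.4 and 11.8 CPM with vehicle and 8.53, 2.40, 9.60 and 7.21 with AP20187 (log2 fold change -1.24, SE 0.44, adjusted p 0.0720).

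Mrgprb5 came closest to the threshold, at 4.25 to 8.32 CPM with vehicle and 1.98 to 4.30 with AP20187 (log2 fold change -1.15, SE 0.38, adjusted p 0.0580), with 1 treated mouse, 4, above the lowest vehicle mouse. Without naive AP20187 4 it passed, as did Lpar5 (adjusted p 0.0419 and 0.0312). Lpar5 was at 5.29 to 9.66 CPM and 1.503 to 6.64 CPM (log2 fold change -1.26, adjusted p 0.102). Lpar3 was at 35.2 to 74.7 CPM and 14.6 to 53.1 CPM (log2 fold change -0.91, adjusted p 0.165). Mrgpra3 was at 8.49 to 15.8 and 1.96 to 11.4 CPM (log2 fold change -0.90, adjusted p 0.185), and Mrgpre at 12.2 to 25.2 and 5.88 to 20.6 CPM (log2 fold change -0.68, adjusted p 0.296). Naive AP20187 3 was the lowest of its group for all 8 receptors, and it also had the lowest pan-neuronal sum of that group.

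DMM mice were compared with unoperated naive mice under vehicle. No sham-operated group was among the samples, so DMM and the operation as such cannot be told apart. None of the 22778 genes passed (0%), and 0 of the 8 receptors had an unadjusted p under 0.05 in edgeR, DESeq2 or limma voom. With DMM vehicle 63 and 64 as the only DMM mice, 2 of 8 had one in edgeR (26.1% of all genes). With DMM vehicle 32 to 34 alone, 0 did (1.41%). Log2 fold changes of DMM minus naive ran from -0.42 for Lpar5 to 0.04 for Mrgprb5. For Mrgprd the value was -0.36 (SE 0.59). Over all alternative fits it ran from -1.66 to 0.11 for Mrgprd and from -1.58 to 0.027 for Lpar5. Among AP20187 mice, 0 of 8 passed, where 0.702% of all genes did. Lpar3 (log2 fold change -1.66, SE 0.42, adjusted p 0.0676) and Lpar5 (-1.13, SE 0.48, adjusted p 0.249) were the 2 of 8 with an unadjusted p under 0.05, which 16.7% of all genes had, both with lower levels in DMM, while Mrgprb5 was at 0.72 (adjusted p 0.340). DESeq2 called 1 of 8 (4.87% of all genes) and limma voom 3 (10.8% of all genes).

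Whether AP20187 acted differently in DMM and naive mice was tested as an interaction. None of the 8 passed by edgeR, and 0.114% of all genes did. The 1 receptor with an unadjusted p under 0.05, which 7.67% of all genes had, was Lpar3, for which the difference of the effects was -1.30 (SE 0.57, adjusted p 0.603). In edgeR 0 of 8 reached it when DMM AP20187 58, 59, 60 or 62 or DMM vehicle 32 or 33 was left out. The same held without naive AP20187 4 or 5 or naive vehicle 3 (6.43% to 8.45% of all genes in these fits). By limma voom 4 of 8 reached it (16.2% of all genes). DESeq2 and limma voom also called 0 of 8. Calls in DMM mice and none in naive mice therefore do not show that the effects differ.

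Over the 4 groups, mean CPM stood in the order naive vehicle, DMM vehicle, naive AP20187, DMM AP20187 for 6 of the 8 receptors. For Mrgprd the means were 141 ± 37.4, 109.8 ± 63.7, 50.5 ± 33.9 and 21.1 ± 17.7 CPM. For Lpar3 they were 60.4 ± 15.7, 47.0 ± 18.8, 32.2 ± 16.2 and 10.2 ± 6.25 CPM. Neighbours in that order overlapped in range. The exceptions were Mrgprb4, lowest in naive AP20187 (3.38 ± 2.78 CPM) and next in DMM AP20187 (3.88 ± 1.81), and Mrgprb5, at 6.72 ± 2.88 CPM in DMM vehicle, 6.55 ± 1.57 in naive vehicle, 4.87 ± 2.34 in DMM AP20187 and 2.95 ± 0.99 in naive AP20187.

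The make-up of the receptor set is independent of the total scaling of a library. Mrgprd held 37.4 ± 4.45% of the summed FPKM of the 8 genes in naive vehicle, 34.2 ± 8.05% in DMM vehicle, 28.8 ± 6.55% in naive AP20187 and 18.8 ± 9.54% in DMM AP20187. Lpar3 held 20.7 ± 4.90%, 21.0 ± 4.14%, 26.8 ± 4.94% and 13.2 ± 4.06% in the same order. The share of Mrgprb5 was 5.49 ± 1.92%, 7.02 ± 0.95%, 6.59 ± 2.92% and 16.5 ± 7.64%. Ranges of DMM AP20187 and DMM vehicle overlapped for Mrgprd (10.6% to 31.7% and 22.9% to 41.3%) and for Mrgprb5 (7.98% to 24.9% and 5.88% to 8.32%). The shares of a library add up to the whole, so the share of Mrgprb5 can be larger where its level is not, and the shares were not tested.

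**Figure D2:**
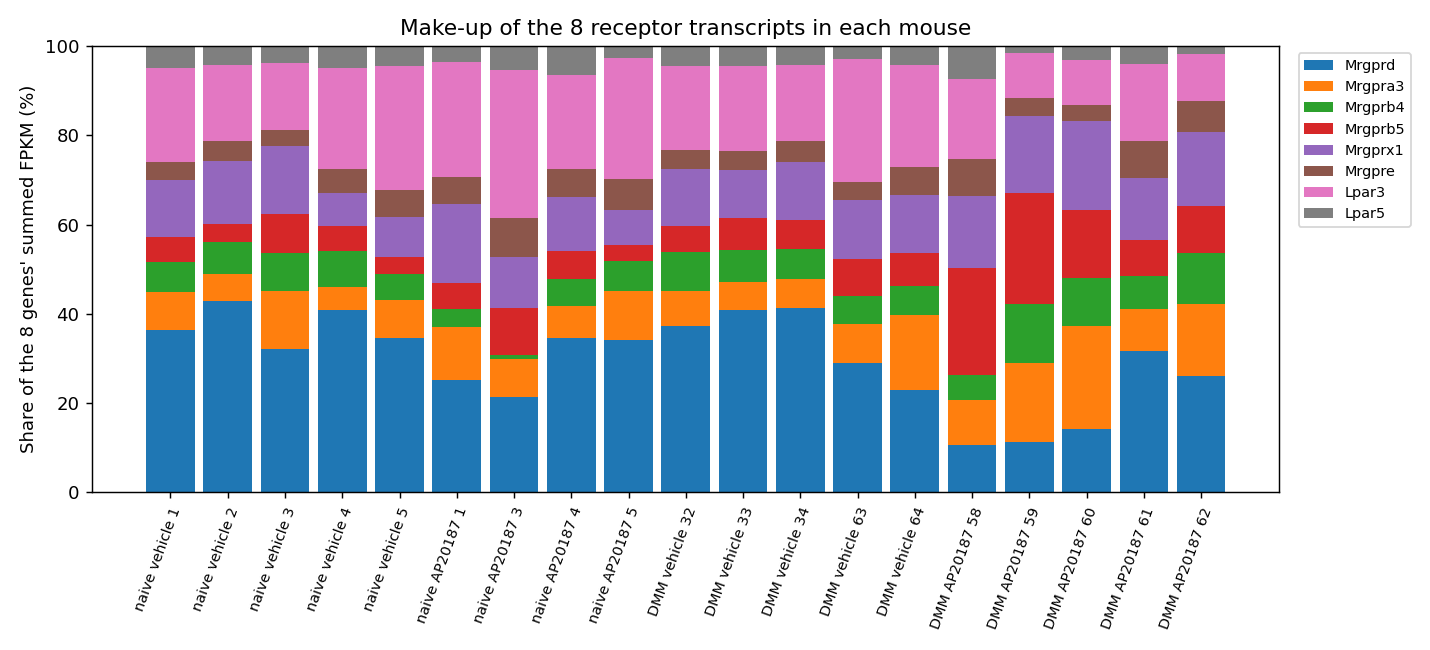
Share of each receptor in the summed FPKM of the 8 genes, in percent, 1 bar per mouse. Mrgprd (bottom) takes 32.2% to 43.0% in naive vehicle mice and 10.6% to 31.7% in DMM AP20187 mice.

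The fit was repeated with libraries scaled to the 15 pan-neuronal genes. Of these genes, 11 of 15 were lower in DMM mice by the main fit and 0 of 15 in naive mice, where 12.4% and 2.57% of all genes were lower. Under this scaling the median over all genes was 1.33 in DMM and 1.00 in naive mice on the log2 scale, so a value near 0 means a change equal to that of the neuronal genes. In DMM mice, Mrgprd (-1.13, SE 0.36, adjusted p 0.0229) and Lpar3 (-0.82, SE 0.28, adjusted p 0.0306) remained lower. Lpar5 was at -0.39 (adjusted p 0.455). Mrgprb5 turned higher, at 1.15 (SE 0.44, adjusted p 0.0445), and Mrgpra3 (0.68), Mrgprb4 (0.31), Mrgprx1 (0.29) and Mrgpre (0.22) were above 0 without passing. So 2 receptors were lower and 1 higher, where 40.8% of all genes passed. Against vehicle mice 63 and 64 alone with this scaling, 0 passed, and Mrgprd was at -0.32 (adjusted p 0.688). In naive mice 0 of 8 passed, with Mrgprb4 at -1.30 (adjusted p 0.0807) and Mrgprd at -0.93 (adjusted p 0.0914).

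**Figure D3:**
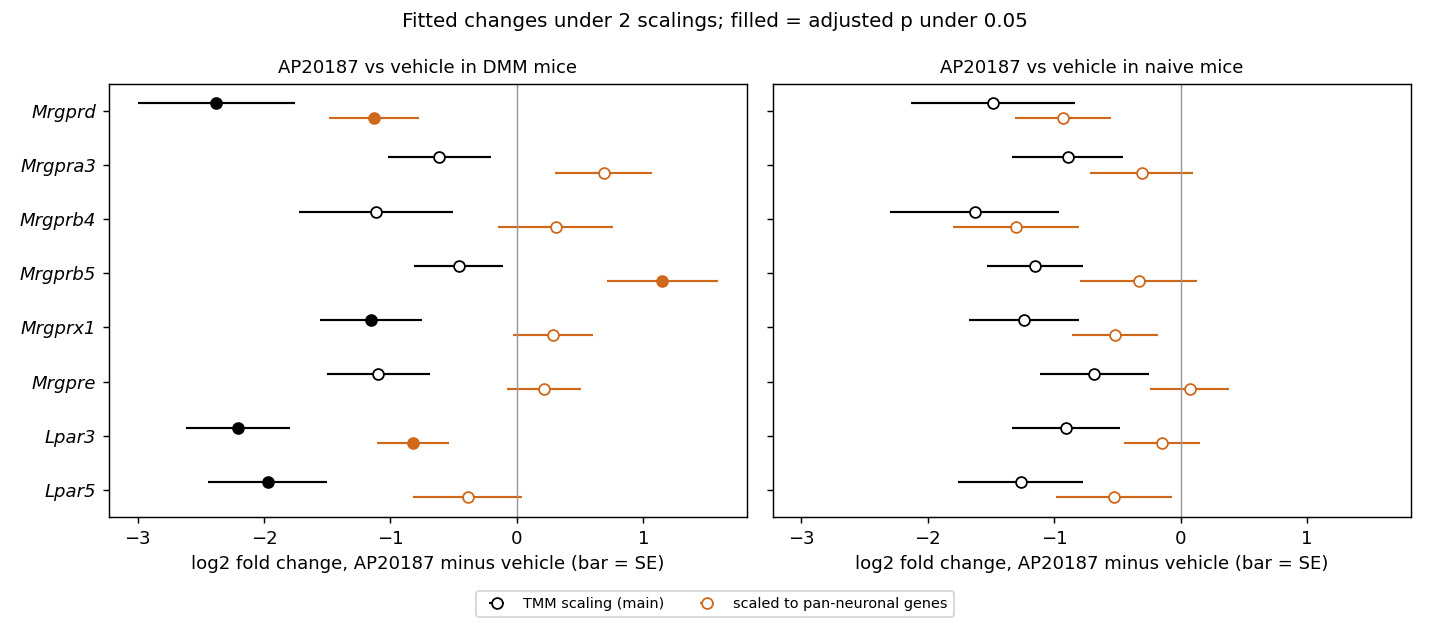
Log2 fold change of AP20187 against vehicle (horizontal axis, bars 1 SE) for each receptor in DMM mice (left) and naive mice (right), with libraries scaled by TMM (black) or to pan-neuronal genes (orange). Filled points have an adjusted p under 0.05: 4 black and 3 orange points in DMM mice and 0 in naive mice.

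Across mice, the receptors moved together within groups. With log2 CPM centred on the group means over 19 libraries, Pearson's r between Mrgprd and Mrgpre was 0.93, and between Mrgpre and Lpar3 it was also 0.93. The lowest r was 0.28, between Mrgpra3 and Lpar5. Mrgprb4 was closest to Mrgprx1 (0.87), and to its sequence relative Mrgprb5 it had 0.68. These points share library, dissection and cell makeup. The r with the mean of the pan-neuronal list was 0.93 for Mrgprd, 0.90 for Lpar3, 0.89 for Mrgpre and 0.86 for Mrgprb4, and 0.49 for Mrgprb5. With the granulocyte list it ran from -0.46 for Mrgpra3 to -0.73 for Lpar5, with the mast cell list from -0.44 for Mrgprb5 to -0.83 for Mrgprd, and with the macrophage list from -0.075 for Mrgprb5 to -0.81 for Mrgpre. The part of these cells in the receptor levels was not tested.

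**Figure D4:**
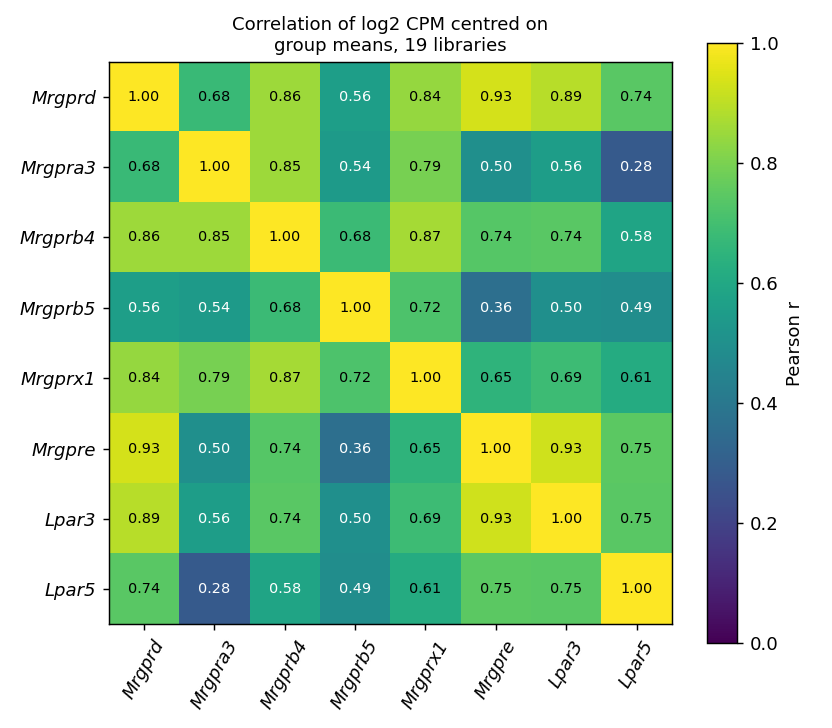
Pearson correlation of log2 CPM, centred on group means, between the receptors over 19 libraries. Mrgprd, Mrgpre and Lpar3 form the brightest block, at 0.89 to 0.93, and Mrgpra3 with Lpar5 is the darkest cell at 0.28.

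**Figure D5:**
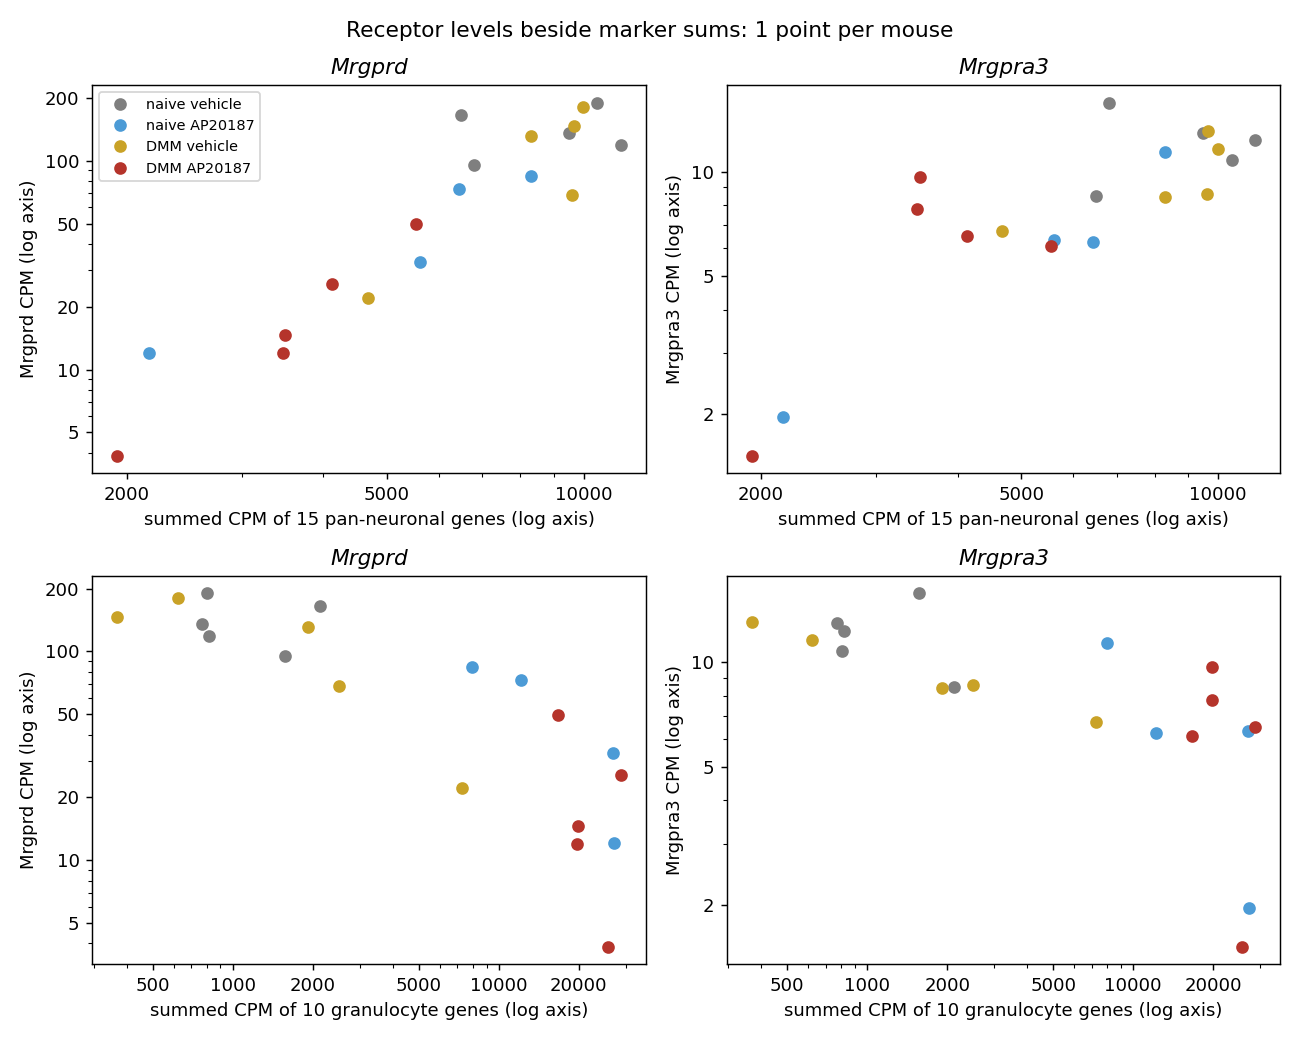
Mrgprd (left) and Mrgpra3 (right) in CPM against the summed CPM of 15 pan-neuronal genes (top) and of 10 granulocyte genes (bottom), logarithmic axes, 1 point per mouse. The 2 mice with the lowest pan-neuronal sums, DMM AP20187 58 at 1936 CPM and naive AP20187 3 at 2162 CPM, are the lowest for Mrgpra3 and among the 3 lowest for Mrgprd.

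Of 14283 named genes with a mean of at least 1 CPM, those most like Mrgprd by the same measure were Kif21a (r 0.99), a kinesin motor, Rasgrp1 (0.99), an activator of Ras, the potassium channel gene Kcnj12 (0.99), Dpysl3 (0.99), which acts in growth cones, and Lrrc75b (0.99). Each of the 5 was lower in DMM with AP20187, with log2 fold changes of -1.34 to -1.53 (adjusted p 0.0293 to 0.0475, where 12.4% of all genes were lower), and none of the 5 passed in naive mice (adjusted p 0.147 to 0.256). Lpar3 was closest to Celf6 (0.97), Mpped2 (0.97) and Bcam (0.97), and Mrgpre to Prkce (0.98), Atp9a (0.98) and Kcnk3 (0.97). Mrgprx1 was closest to Ncam2 (0.95), Tmem74 (0.94) and the granin gene Scg2 (0.94), Mrgprb4 to Lrriq1 (0.96), Tmem74 (0.94) and Hace1 (0.94), and Mrgpra3 to Zwint (0.95), Cyp2j12 (0.94) and Cfap69 (0.94). The likeness was lower for Lpar5, at 0.91 with Wasf3, and for Mrgprb5, at 0.86 with Zfp799.

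Of other genes of non-peptidergic nociceptors, 9 of 11 were lower in DMM mice and 0 higher, with a median log2 fold change of -1.71, where 12.4% of all genes were lower. Other neuron classes had lower genes too: 3 of 3 genes of C low-threshold mechanoreceptors (median -1.91), 4 of 8 of large fibres (-1.01) and 3 of 6 of peptidergic neurons (-0.88). Whether the lists differ was not tested. Among them were the sodium channel Scn11a, at 407 CPM with vehicle and 99.9 with AP20187 (log2 fold change -2.03, SE 0.61, adjusted p 0.0242), the growth factor receptor Ret (-1.89, adjusted p 0.0224), its co-receptor Gfra2 (-1.82, adjusted p 0.00758) and the kainate receptor Grik1 (-1.82, adjusted p 0.0139). The call of Scn11a was lost when treated mouse 59, 60 or 62 or vehicle mouse 33 was left out (adjusted p 0.0520 to 0.0734), and that of Ret when treated mouse 58, 59 or 60 or vehicle mouse 33 was (adjusted p 0.0515 to 0.0657). Runx1, at 67.9 and 53.1 CPM, did not pass (-0.35, adjusted p 0.355), nor did Plxnc1 (-0.75, adjusted p 0.115). Which cells of the ganglia held these 2 transcripts was not tested. In naive mice, where 2.57% of all genes were lower, 1 of 11 was, the complement regulator Cd55 (-1.07, adjusted p 0.0292). Cd55 no longer passed without naive AP20187 1 or 3 or without naive vehicle 1, 2 or 5 (adjusted p 0.0530 to 0.118). The naive count was 2 without naive AP20187 5, 3 by DESeq2 and 4 by limma voom, and 2 of 3 genes of C low-threshold mechanoreceptors were lower in naive mice (median -1.43). The shares of all genes for DESeq2 and limma voom are given above with the receptors in naive mice. Against DMM vehicle 63 and 64 alone, 0 of 11 passed, and scaled to pan-neuronal genes 0 of 11 were lower and 2 higher in DMM mice. Both fits have their shares of all genes given above with the receptors.

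Of 9 genes of the pathway below the receptors, 6 were lower in DMM mice and 0 higher (median -0.97), where 12.4% of all genes were lower. They included the heat and capsaicin channel Trpv1, at 98.8 CPM with vehicle and 30.3 with AP20187 (-1.70, SE 0.48, adjusted p 0.0181), the phospholipase Plcb3 (-1.10, adjusted p 0.00868), the Gq subunit Gnaq (-1.08, adjusted p 0.0374) and the chloride channel Ano1 (-1.10, adjusted p 0.0498). The call of Gnaq was lost when treated mouse 58, 59, 60 or 62 or vehicle mouse 32, 33 or 34 was left out (adjusted p 0.0597 to 0.110), and that of Ano1 when treated mouse 58, 59, 60 or 61 or one of the same vehicle mice was (adjusted p 0.0719 to 0.141). With treated mouse 58 or vehicle mouse 32 left out, 3 of 9 were lower. In naive mice 0 of 9 passed (median -0.77), and 3 did without naive AP20187 5. Scaled to pan-neuronal genes, 0 of 9 were lower and 1 was higher in DMM mice. The share of all genes that passed in that fit is given above with the receptors.

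Of 9 tested genes of lysophosphatidic acid signalling beside the 2 receptors, 3 were lower in DMM mice and 0 higher (median -0.04), where 12.4% of all genes were lower. The 3 were the phosphatases Plpp1 (-0.67, adjusted p 0.0198) and Plpp2 (-0.65, adjusted p 0.0131), which break down the lipid, and the receptor Lpar1 (-0.60, adjusted p 0.0318), which glia also express. The call of Plpp1 was lost when treated mouse 58 or vehicle mouse 32 or 33 was left out (adjusted p 0.0505 to 0.0632), that of Plpp2 when vehicle mouse 32 was (adjusted p 0.0576), and that of Lpar1 when treated mouse 58 or 62 or vehicle mouse 32 or 63 was (adjusted p 0.0624 to 0.0814). With treated mouse 58 left out, 1 of the 9 passed, and with vehicle mouse 32 left out, 0 did. None of the 9 passed in naive mice, and 1 did without naive AP20187 5 or naive vehicle 4. Scaled to pan-neuronal genes, 0 of the 9 were lower and 2 higher in DMM mice, with the share of all genes in that fit given above with the receptors. Of 8 genes of itch neurons, Sst was lower in both DMM (-1.79, SE 0.32, adjusted p 0.00123) and naive mice (-1.42, SE 0.34, adjusted p 0.0131), with all treated mice below all vehicle mice in both. That pattern was found for 4.18% of all genes in DMM and 6.15% in naive mice. Scaled to pan-neuronal genes, Sst was at -0.39 in DMM (adjusted p 0.488) and -0.58 in naive mice (adjusted p 0.378), and of the 8 genes 0 were lower and 2 higher in DMM mice and 0 lower and 1 higher in naive mice. Sst encodes somatostatin, carried by the itch neurons that lack the Mrgpr receptors above. The histamine receptor Hrh1 was lower in DMM (-0.80, adjusted p 0.0223), but no longer passed when treated mouse 62 or vehicle mouse 32 was left out (adjusted p 0.0515 and 0.0862). Without DMM vehicle 64, 5 of the 8 passed. In that edgeR fit 43.3% of all genes had an unadjusted p under 0.05, against 37.3% with mouse 64. The neurotensin gene Nts was higher in naive mice (1.14, adjusted p 0.0455), a call lost when any of 7 libraries was left out, naive AP20187 1, 3 or 4 or naive vehicle 1, 2, 4 or 5 (adjusted p 0.0634 to 0.180).

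Elsewhere in the Mrgpr family, Mrgpra2a and Mrgpra2b moved the other way. These 2 close copies, between which reads may be split, are known from neutrophils. Mrgpra2a was at 8.61 CPM in DMM vehicle and 21.4 in DMM AP20187 (log2 fold change 1.31, SE 0.23, adjusted p 0.00106), and at 8.39 and 20.3 CPM in naive mice (1.28, SE 0.24, adjusted p 0.00303). Mrgpra2b was at 19.3 and 49.7 CPM in DMM (1.37, SE 0.19, adjusted p 0.000231) and 17.7 and 37.6 CPM in naive mice (1.09, SE 0.20, adjusted p 0.00292). In both comparisons all treated mice lay above all vehicle mice, as they did for 8.71% of all genes in DMM and 9.39% in naive mice. The granulocyte list was higher in 9 of 10 genes in DMM and 10 of 10 in naive mice, where 11.3% and 8.61% of all genes were higher. Mrgpra2a and Mrgpra2b were 2 of 10 tested relatives, and the other 8 did not pass in either comparison.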

How the data were processed

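The deposited table pairs each gene's counts, as whole numbers, with FPKM, which the authors scaled to transcript length and library size. Per the submitters' processing notes, cutadapt, HISAT2 and StringTie were used with GRCm39, with no role or version stated. Counts were fitted in edgeR (version 4.0.16, under R 4.3.3; TMM, filterByExpr with minimum count 10, quasi-likelihood F test, two-sided, 1 model of 4 groups with 15 residual degrees of freedom), and 22778 of 36682 genes were tested in 5 contrasts. A gene passed at an adjusted p under 0.05. CPM use TMM library sizes, log2 CPM a prior count of 2. The deposited FPKM were used for levels between genes and as an alternative with limma 3.58.1 after adding 1 or 0.1. In naive AP20187 1, 3 and 4 the FPKM lay at -0.15, -0.15 and -0.12 log2 against the counts of the other libraries, which touches FPKM levels but not shares within a library. DESeq2 1.42.0, limma voom, other scalings, no filter, leaving out each library and parts of DMM vehicle were alternatives. Scaling to pan-neuronal genes used median-ratio size factors of 15 genes. The floor of 3 counts covers counting error only, while SDs and SEs hold the spread between mice. The model was also run on simulated counts with 200 changed genes and no shift in cell makeup between groups. No result here rests on that run.

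The receptors and all lists were chosen with earlier results of these data known. Named were the 8 receptors, up to 4 genes passing per related list and comparison by size of change, and the genes most like each receptor (5 for Mrgprd, up to 3 for others). Not every pair of same-numbered naive mice deviated together, so the numbers were not taken as pairs. Pan-neuronal scaling combined with parts of DMM vehicle, and the naive fit on the same mice without the block, were added after seeing the data. Runx1, Plxnc1, Mrgprb1, Mrgprb2, Mrgprf, Mas1, Mrgpra1 and Mrgpra4 lie outside the naming rule and were chosen after their values were seen.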

Additional observations from a re-analysis of the deposited data

Results flagged for a closer look

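Among 32 sets of CPM values (8 receptors in 4 groups), 2 held a mouse far from the rest of its group by Dixon's criterion, where chance gives about 1 in 20. Mrgprb4 in DMM AP20187 58 was at 0.788 CPM, below 4.29 to 5.56 CPM in the other 4 mice. Lpar3 in DMM AP20187 61 was at 21.1 CPM, above 5.11 to 8.50 CPM in the other 4 mice. Without mouse 61 the log2 fold change of Lpar3 was -2.66, against -2.21 with it, and without mouse 58 that of Mrgprb4 was -0.85, against -1.11.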

How the results depend on the processing

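Of 8 receptors, 4 passed with AP20187 in DMM mice, 3 to 5 when single libraries were left out, 5 by DESeq2 and 6 by limma voom. The shares of all genes that passed were 23.8%, 14.2% to 34.0%, 30.9% and 46.9% in these fits. Against DMM vehicle 63 and 64 alone 0 passed (4.73% of all genes). Scaled to pan-neuronal genes, 2 passed against mice 32 to 34 (57.8%) and 0 against 63 and 64 (0%). In naive mice, where 0 passed, 1 did with library totals (10.8% of all genes), 1 with only the groups compared (13.0%), 4 by DESeq2 (19.1%), 5 by limma voom (19.9%), 5 on log2(FPKM + 1) (18.2%), 5 on log2(FPKM + 0.1) (18.5%) and 0 to 2 when single libraries were left out (2 without naive AP20187 4, 10.9%). For DMM against naive with AP20187, 1 passed by DESeq2 (4.87%), 3 by limma voom (10.8%) and 0 to 1 when single libraries were left out (1 without DMM AP20187 61, 1.19%, or naive AP20187 3, 0.644%). The cause was not tested.

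With the replicate block on naive mice 1, 3, 4 and 5, 3 receptors passed (Lpar3, Lpar5 and Mrgprd; 8.66% of all genes), against 0 without it on the same mice (6.80%), and of 11 other non-peptidergic genes 6 passed against 0. Same-numbered mice correlated at 0.0235, 0.301, -0.0822 and 0.183, and not every mouse correlated best with its own number, so the numbers were not taken as pairs.

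Signs turned in these cases (log2 fold changes). Scaled to pan-neuronal genes, DMM mice had Mrgpra3 at 0.68, Mrgprb4 at 0.31, Mrgprb5 at 1.15, Mrgprx1 at 0.29, Mrgpre at 0.22, Plpp1 at 0.77, Plpp2 at 0.90, Lpar1 at 0.77, Ano1 at 0.32, Plcb3 at 0.47, Gnaq at 0.36 and Hrh1 at 0.69. Naive mice had Mrgpre at 0.070, DMM against naive with AP20187 had Mrgpra3 at 0.87 and Mrgprx1 at 0.65, and the interaction had Mrgpre at 0.15 and Lpar5 at 0.14. Against mice 32 to 34 with that scaling, Mrgpra3 was at 0.85, Mrgprb4 at 0.057, Mrgprb5 at 1.08, Mrgprx1 at 0.15 and Mrgpre at 0.13. Against mice 63 and 64 they were at 0.51, 0.85, 1.31, 0.58 and 0.41, and Lpar5 at 0.17. With TMM, mice 63 and 64 alone gave Mrgprb5 0.20 for AP20187 and -0.57 for DMM against naive vehicle, and mice 32 to 34 gave 0.11 for Mrgprd, 0.12 for Mrgprb4, 0.089 for Mrgprx1 and 0.027 for Lpar5 in the latter. For DMM against naive with AP20187, Mrgpra3 was at 0.034 with library totals, 0.13 by limma voom, 0.12 on log2(FPKM + 1) and 0.15 on log2(FPKM + 0.1), and Mrgprx1 at 0.030 and 0.050 on these FPKM scales. Mrgprb5 in DMM against naive vehicle was at -0.023 and -0.043 on them, and Mrgprx1 in the interaction at -0.10 by limma voom. When single libraries were left out, DMM against naive with AP20187 ran from -0.35 to 0.39 for Mrgpra3, -0.45 to 0.052 for Mrgprx1 and -0.21 to 0.70 for Mrgprb4. The interaction ran from -0.18 to 0.30 for Mrgprx1 and -0.022 to 0.72 for Mrgpra3, and DMM against naive vehicle from -0.18 to 0.25 for Mrgprb5. Of the values that turned, only those of Mrgprx1, Lpar5, Plpp1, Plpp2, Lpar1, Ano1, Plcb3, Gnaq and Hrh1 for AP20187 in DMM mice had passed as first fitted. Low counts limit Mrgprb4, which fell to 12 counts in a library.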

Other observations

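Several other Mrgpr receptors had few counts. Mrgprb3 had 0 counts in all 19 libraries, and Mrgpra6, Mrgprb8 and Mrgprg reached at most 9, 7 and 13 counts in a library. Mrgpra1 reached at most 39 counts and Mrgpra4 at most 28. Mrgprb2, the receptor by which mast cells respond to cationic peptides, was at 0.544 CPM in naive vehicle, 0.576 in naive AP20187, 0.700 in DMM vehicle and 0.961 in DMM AP20187, and did not pass with AP20187 in DMM (log2 fold change 0.46, adjusted p 0.754) or naive mice (0.08, adjusted p 0.962). Mrgprb1 was at 1.11 to 2.38 CPM and Mrgprf at 4.49 to 5.05 CPM by group mean in the 4 groups. Mas1, the founding relative of the family, was at 0.655 CPM in naive vehicle and 0.214 in naive AP20187 (log2 fold change -1.60, adjusted p 0.250).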
